A study of Homo sapiens with 36 samples.

Results

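The genes described here are 38 genes of the unfolded protein response and the amino acid stress response, followed across the 9 groups of a hormone experiment in ZR-75-1, an established line of human breast cancer cells with the estrogen receptor. They were taken as a named list and read in 3 groups. These were 22 genes of protein folding and export in the endoplasmic reticulum (ER), 13 genes of the type driven by the transcription factor ATF4, and 3 stress sensors. Where a gene had several probes, the one of highest mean signal across the arrays stood for it. A probe carried the symbol of 36 of the 38 genes alone, and 33 genes passed the filter on detection (a detection p under 0.01 on 4 or more arrays), of 9902 genes tested in all. HERPUD1 and ERN1 were not analysed here, and the probes of PDIA3, CHAC1 and SLC7A11 were detected on 0 of 36 arrays. The 33 genes measured were 20 of the ER genes, 11 of the ATF4-type genes and 2 of the sensors.

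Each group held 4 arrays, 36 in all. The natural progestin progesterone (P4), its synthetic relative medroxyprogesterone acetate (MPA) and the androgen dihydrotestosterone (DHT) were each given at 10 nM for 16 h. In the E2pre+P4 group estradiol (E2) was present for 72 h, with P4 for the last 16 h. In the E2+P4, E2+MPA and E2+DHT groups both hormones were given together for 16 h, and E2 was also given alone for 16 h, each hormone at 10 nM. Vehicle cells received ethanol at 2 ppm for 16 h. All cells were at passage 16 and had been kept in hormone-stripped medium for 56 h beforehand. A single cell line is the model throughout. The labels do not say whether the 4 samples of a group were separate cultures, so p-values measure the spread between these samples, which may be technical.

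Unfolded protein in the ER is sensed by proteins in the ER membrane: ATF6, IRE1 (encoded by ERN1) and PERK (encoded by EIF2AK3). ATF6 and IRE1 raise the transcription of chaperones, of enzymes that form disulfide bonds, and of the machinery that sends misfolded protein to degradation. PERK phosphorylates the translation initiation factor eIF2alpha, which slows protein synthesis in general while ATF4 is made. The kinase GCN2 acts on the same factor when amino acids run short, and ATF4 then raises genes of amino acid synthesis and transport. Estrogen-responsive breast cancer cells are known to use the unfolded protein response while they grow.

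Short elements known from this response were searched for on both strands of the RefSeq promoters (GRCh38.p14, 250 bases before to 50 bases after each start). These were the ER stress response element (ERSE, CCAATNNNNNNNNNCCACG), ERSE-II (ATTGG and CCACG with 1 base between them), the unfolded protein response element (UPRE, TGACGTGG) and the C/EBP-ATF element bound by ATF4 (TGATGNAA). Promoters were matched for 35 of the 38 genes. PDIA3, SEC24D and SLC7A11 were the other 3. ERSE was in 5 of 20 ER promoters (HSPA5, HSP90B1, CALR, CANX and CRELD2), against 0.0769% of all 35116 promoters. ERSE-II was in 3 of 20 (HYOU1, SDF2L1 and HERPUD1), against 0.0541%, and UPRE was in 1 of 20 (HYOU1, overlapping an ERSE-II match), against 0.729%. The C/EBP-ATF element was in 4 of 12 ATF4-type promoters (ATF3, CHAC1, ASNS and SLC3A2) and in 1 of 20 ER promoters (HERPUD1), against 3.62%. None of these patterns was in the 3 sensor promoters. A match is a run of letters and no binding was measured. The promoters below are those of HSPA5, the standard marker of ER stress (chr9:125241294-125241593, minus strand), SDF2L1 (chr22:21642052-21642351, plus strand), ATF3 (chr1:212565157-212565456, plus strand) and SEL1L (chr14:81533804-81534103, minus strand), which carry the results that follow. Capitals mark ERSE in HSPA5 (66 bases before the start), ERSE-II in SDF2L1 (188 bases before) and the C/EBP-ATF element in ATF3 (191 bases before), and SEL1L held no match in this window.
HSPA5: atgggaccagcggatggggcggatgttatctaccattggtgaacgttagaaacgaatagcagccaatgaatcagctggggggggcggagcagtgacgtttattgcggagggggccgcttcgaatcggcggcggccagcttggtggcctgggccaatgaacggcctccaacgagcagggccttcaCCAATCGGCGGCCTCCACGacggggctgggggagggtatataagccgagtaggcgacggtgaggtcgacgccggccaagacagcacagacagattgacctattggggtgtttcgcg
SDF2L1: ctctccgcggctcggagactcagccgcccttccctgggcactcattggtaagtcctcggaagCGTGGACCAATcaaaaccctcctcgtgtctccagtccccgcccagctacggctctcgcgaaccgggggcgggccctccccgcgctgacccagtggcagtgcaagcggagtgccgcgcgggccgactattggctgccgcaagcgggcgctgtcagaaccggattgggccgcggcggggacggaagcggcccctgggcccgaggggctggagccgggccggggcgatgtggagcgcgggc
ATF3: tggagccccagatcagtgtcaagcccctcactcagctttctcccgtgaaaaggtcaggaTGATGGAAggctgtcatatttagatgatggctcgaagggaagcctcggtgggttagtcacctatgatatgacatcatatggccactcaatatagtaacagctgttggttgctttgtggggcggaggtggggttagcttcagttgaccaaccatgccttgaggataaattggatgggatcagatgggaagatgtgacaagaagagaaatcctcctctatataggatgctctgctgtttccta
SEL1L: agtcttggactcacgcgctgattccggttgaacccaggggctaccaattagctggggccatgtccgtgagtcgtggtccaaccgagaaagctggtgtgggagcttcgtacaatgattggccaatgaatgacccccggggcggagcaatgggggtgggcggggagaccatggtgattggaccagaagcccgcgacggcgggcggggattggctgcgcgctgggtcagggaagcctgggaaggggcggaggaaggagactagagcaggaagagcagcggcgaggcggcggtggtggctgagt

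The arrays detected between 12191 and 14806 of 48803 probes, and 29 of the 33 genes were detected on all 36 arrays. Levels are given as log2 signal after background correction and quantile normalisation, and changes as differences on that scale. All 8 luminal epithelial markers were detected on every array, and 2 of 12 markers of other cell types were. The arrays labelled E2 replicate 2 and E2pre+P4 replicate 2 each carried the levels of the other label. PDZK1, an estrogen target, was 11.15 on the array labelled E2pre+P4 replicate 2 (9.77 to 10.40 on the other 3) and 10.23 on the array labelled E2 replicate 2 (11.30 to 11.43 on the other 3). FKBP5, a target of androgens and progestins, was 9.35 and 11.51 on these arrays, against 11.20 to 11.48 and 9.52 to 10.04 on the others of each label. SERPINA3, the third gene of this check, was 9.42 and 12.42 on the same arrays, against 12.47 to 12.88 and 9.30 to 9.52 on the others of each label. Results were therefore also computed without both arrays. The arrays further differed by their place in the deposited order, taken as 6 sets of 6 consecutive arrays, since a chip of this type holds 6 arrays and the files name no chip. Vehicle replicate 1 held the lowest or highest of all 36 values for 13 of the 33 genes and for 34.9% of all genes.

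In at least 1 of the 8 comparisons with vehicle, 2 of the 33 genes passed an adjusted p of 0.05 in limma (10.7% of all genes). The samples are bulk RNA, in which fewer expressing cells and less RNA per cell cannot be told apart. ATF3 rose with E2+P4, and SEL1L fell with DHT and with E2pre+P4, and these were the 3 of 693 tests (33 genes in 21 comparisons) that passed an adjusted p of 0.05 in limma. At an unadjusted p under 0.05 there were 86, and over all genes 12.5% of tests reached it. Against vehicle, 0 of the 33 genes passed with P4 (0% of all genes), 0 with MPA (1.96%), 1 with DHT (2.4%), 1 with E2pre+P4 (6.18%), 1 with E2+P4 (1.92%), 0 with E2+MPA (3.87%), 0 with E2+DHT (4.81%) and 0 with E2 (1.37%). Where none passed, limma gave an unadjusted p under 0.05 for 8 genes with P4 (26.3% of all genes), 12 with MPA (28.3%), 5 with E2+MPA (18.3%), 6 with E2+DHT (21.9%) and 2 with E2 (10.5%). The 95% interval of a pairwise change reached a median of 0.324 to either side on the log2 scale, from 0.235 for SDF2L1 to 1.63 for SEC24D (0.4 over all genes). Changes within a gene's interval could not be told from 0 with 4 arrays a group. The interval is not adjusted for the number of genes, so larger changes could also fail to pass. In E2+MPA against E2, MANF changed by -0.50 with an interval of 0.269 to either side and did not pass.

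**Figure D1:**
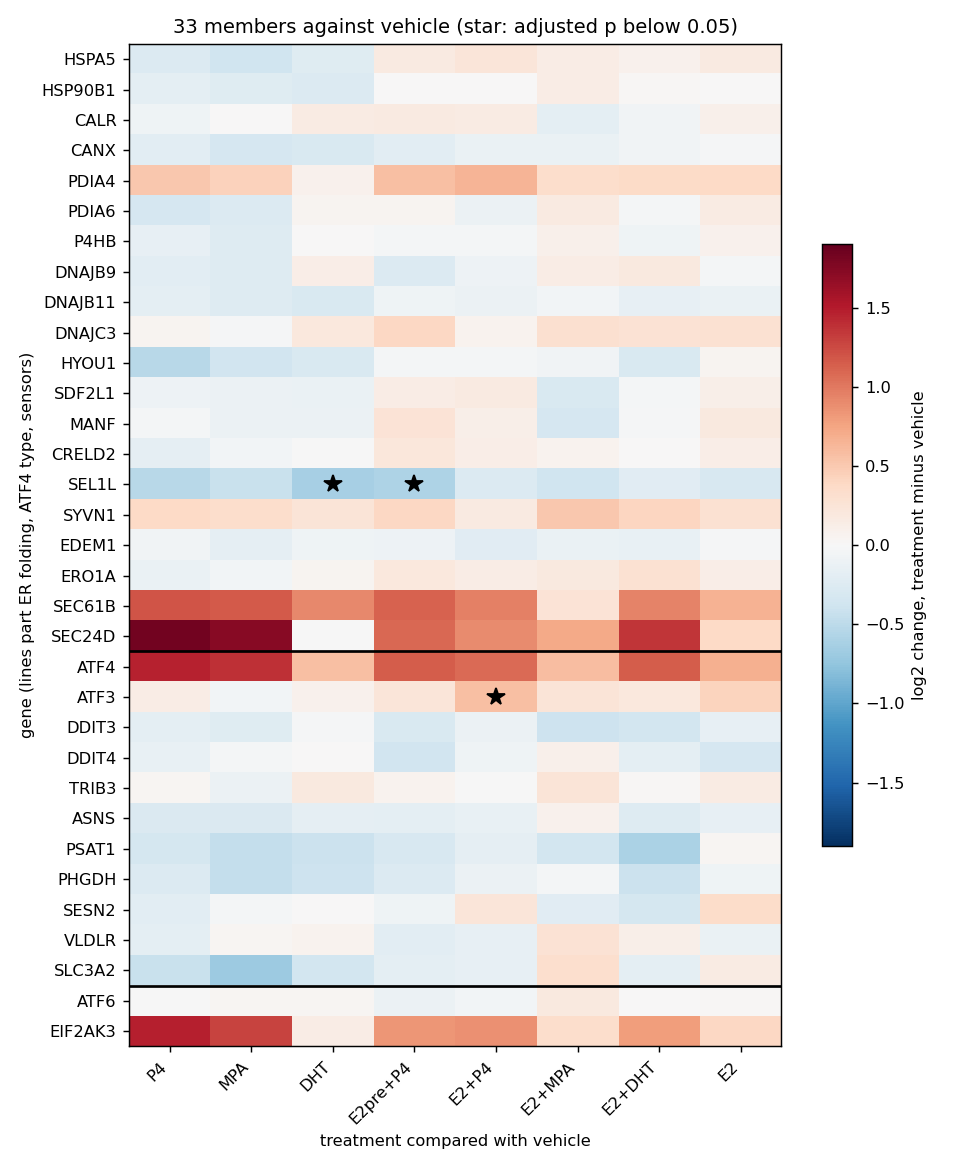
Log2 change of the 33 measured genes (rows) in 8 treatments minus vehicle (columns), with colour for size and direction. Stars mark the changes that passed, which are ATF3 with E2+P4 (0.57) and SEL1L with DHT (-0.63) and E2pre+P4 (-0.59), and the large changes of SEC24D, EIF2AK3, ATF4 and SEC61B carry no star.

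ATF3 is a stress-induced transcription factor of the ATF/CREB family. Its log2 signal was 9.20, 9.08, 9.64 and 9.09 on the E2+P4 arrays, against 8.47, 8.79, 8.61 and 8.87 on the vehicle arrays. Every E2+P4 array lay above every vehicle array. The change was 0.57 ± 0.124 (SE, n = 4 each), with a 95% interval of 0.315 to 0.82 and a limma adjusted p of 0.00739. With E2 alone ATF3 was 9.16, 8.94, 9.24 and 9.10, also without overlap with vehicle, and the change of 0.42 ± 0.124 did not pass (adjusted p = 0.0983). Within set 3, with 2 E2 arrays and 1 vehicle array, that difference was 0.179. E2+P4 differed from E2 by 0.14 ± 0.124 (95% interval -0.109 to 0.395). With P4 alone ATF3 was 8.72, 8.84, 8.81 and 8.93, a range that overlapped vehicle.

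The ATF3 difference was of like size within both sets of arrays that held E2+P4 and vehicle, at 0.73 in set 1 and 0.591 in set 5. With the sets as a block in the fit it was 0.57 (adjusted p = 0.0111, 2.44% of all genes passing). It did not pass without vehicle replicate 1 (0.49, adjusted p = 0.0514) or without E2+P4 replicate 3 (0.44, adjusted p = 0.0725). ATF3 was also the 1 gene of the 33 that differed among the 9 groups by the moderated F-test in limma (adjusted p = 0.0108, 7.42% of all genes). When the sets were a block 3 of the 33 differed (8.08% of all genes), which were ATF3 (adjusted p = 0.0396), SDF2L1 (0.047) and MANF (0.0481). The count was 5 without E2+MPA replicate 1 (8.52% of all genes) and 3 without E2+MPA replicate 2 (8.14%). It was 2 without DHT replicate 2 (6.95%), E2 replicate 4 (8.93%), E2+DHT replicate 3 (6.96%) or vehicle replicate 1 (6.94%).

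SEL1L is the partner of the ubiquitin ligase SYVN1 in the complex that moves misfolded ER protein to degradation. Its log2 signal was 7.84, 8.21, 8.16 and 8.46 on the DHT arrays, against 9.07, 8.81, 8.59 and 8.69 on the vehicle arrays. On the E2pre+P4 arrays it was 8.14, 8.13, 8.24 and 8.28. Neither treated group overlapped vehicle. The change was -0.63 ± 0.158 with DHT (95% interval -0.947 to -0.304, adjusted p = 0.0241) and -0.59 ± 0.158 with E2pre+P4 (95% interval -0.913 to -0.27, adjusted p = 0.0209). Both comparisons share the vehicle arrays, of which replicate 1 held the highest SEL1L value of all 36. SEL1L on the P4 arrays (7.98 to 8.48) and the MPA arrays (8.28 to 8.48) was also below every vehicle array, with changes of -0.52 (adjusted p = 0.118) and -0.42 (adjusted p = 0.117) that did not pass. The vehicle mean of 8.791 was the highest of the 9 group means, so SEL1L averaged below vehicle in all 8 treatments (-0.31 with E2). The E2, E2+P4, E2+MPA and E2+DHT arrays overlapped vehicle.

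The SEL1L calls were lost under several settings. With the sets as a block the changes were -0.49 with DHT (adjusted p = 0.163, 1.83% of all genes passing) and -0.38 with E2pre+P4 (adjusted p = 0.22). Within set 3, with 1 DHT and 1 vehicle array, the difference was -0.223, and within set 5, with 1 E2pre+P4 and 1 vehicle array, it was -0.352. Without vehicle replicate 1 neither passed (-0.53 and -0.50, adjusted p = 0.138 and 0.124). The DHT change did not pass without DHT replicate 1 (adjusted p = 0.13), 2 (0.0504) or 3 (0.061). The E2pre+P4 change did not pass without E2pre+P4 replicate 1 (adjusted p = 0.0643) or without both arrays in doubt (-0.57, adjusted p = 0.0517).

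**Figure D2:**
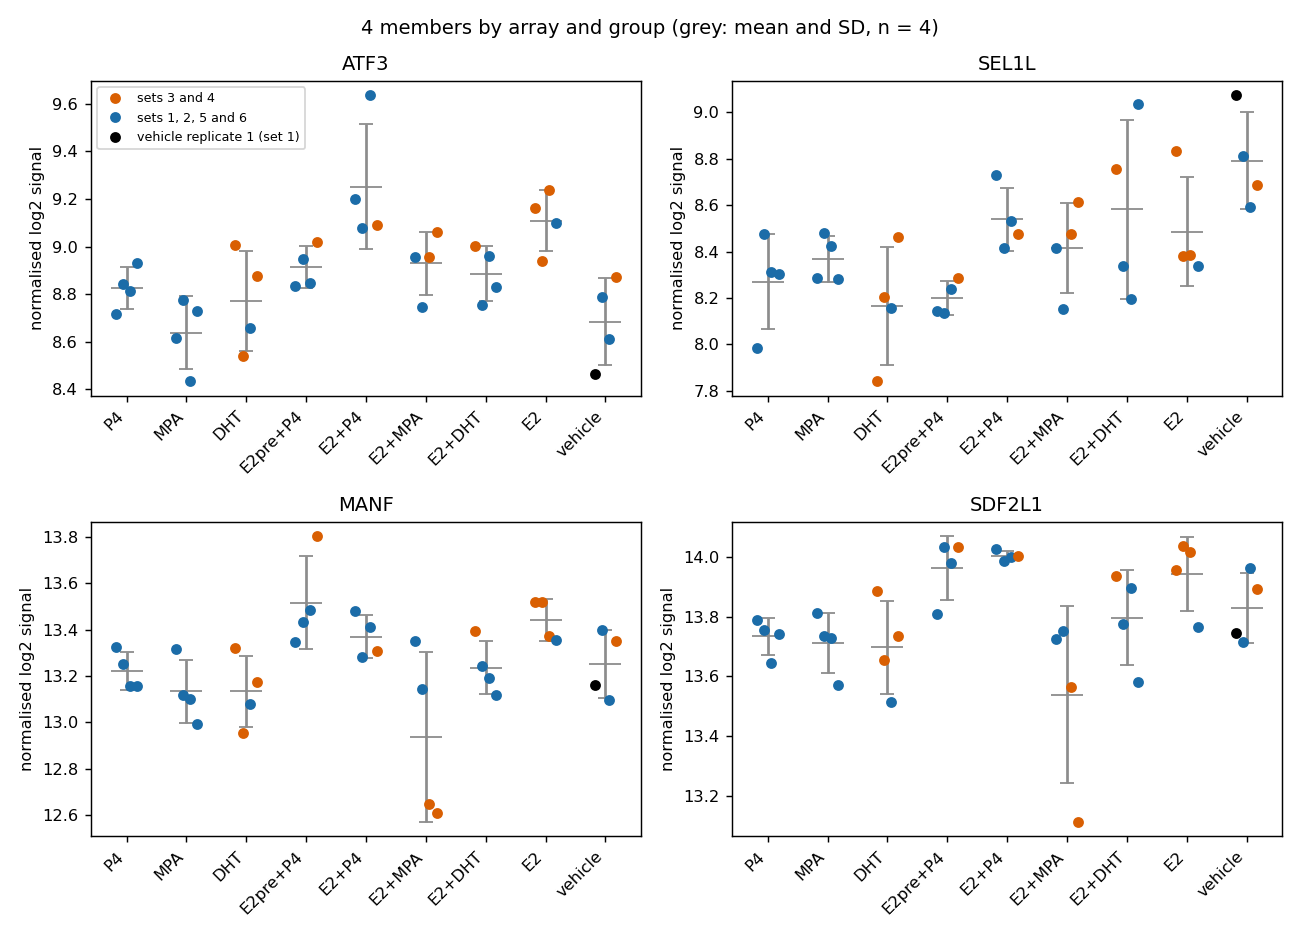
Normalised log2 signal of ATF3, SEL1L, MANF and SDF2L1 on each array by group, with mean and SD (n = 4) in grey and the arrays of sets 3 and 4 in orange. ATF3 on the E2+P4 arrays (9.08 to 9.64) lies above all vehicle arrays, SEL1L on the DHT arrays (7.84 to 8.46) lies below them, and MANF is lowest on 2 E2+MPA arrays (12.65 and 12.61).

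MANF, a secreted ER protein that protects stressed cells, and SDF2L1, a cofactor of the chaperone BiP, were lowest with E2+MPA. MANF was 13.35, 13.14, 12.65 and 12.61 on the E2+MPA arrays, against 13.52, 13.52, 13.37 and 13.36 on the E2 arrays. SDF2L1 was 13.73, 13.75, 13.56 and 13.11 on the E2+MPA arrays, against 13.96, 14.03, 14.01 and 13.76 on the E2 arrays. For both genes the highest E2+MPA array was just below the lowest E2 array. The changes were -0.50 ± 0.132 for MANF (adjusted p = 0.0572) and -0.40 ± 0.115 for SDF2L1 (adjusted p = 0.0899). DDIT4, a stress-induced inhibitor of mTORC1, ran the other way at 14.10, 14.15, 14.60 and 14.46 on the E2+MPA arrays, against 13.73, 13.97, 14.06 and 13.89 on the E2 arrays, a change of 0.41 ± 0.122 without overlap (adjusted p = 0.101).

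On addition to E2, 0 of the 33 genes passed with P4 (0% of all genes), 0 with MPA (0.889%) and 0 with DHT (0.818%), and limma gave 0, 4 and 3 genes at an unadjusted p under 0.05 (0.929%, 11.7% and 7.1% of all genes). In E2+MPA against E2 MANF passed with the sets as a block (-0.57, adjusted p = 0.0376, 1.45% of all genes), but not when the arrays in doubt, of which E2 replicate 2 is in this comparison, were also left out (-0.56, adjusted p = 0.0639). The count in this comparison depended on single arrays. Without E2+MPA replicate 1 or without replicate 2, MANF, SDF2L1 and DDIT4 passed (MANF at -0.64 and -0.57), and without replicate 3 or without replicate 4, 0 of the 33 genes passed. The share of all genes that passed in these fits is not given, so these counts cannot be set against it. Replicates 3 and 4 were the E2+MPA arrays of sets 3 and 4, and replicate 3 held the highest of all 36 values for 8 of the 33 genes. Within set 3, with 1 E2+MPA array and 2 E2 arrays, the difference was -0.874 for MANF, -0.431 for SDF2L1 and 0.746 for DDIT4. One of those E2 arrays was replicate 2, which is in doubt. Within set 4, with 1 array of each group, the differences were -0.763, -0.9 and 0.399. What part E2+MPA replicates 3 and 4 had in the change was not tested.

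Steroids were also compared with each other at the same dose and time, in 6 pairs. Given alone, MPA against P4 (0.374% of all genes), DHT against P4 (1.42%) and DHT against MPA (0.303%) each gave 0 of the 33 genes, with 0, 3 and 2 at an unadjusted p under 0.05 in limma (2.83%, 15.8% and 11.7% of all genes). With E2, MPA against P4 (0.465%), DHT against P4 (0.747%) and DHT against MPA (0.293%) each gave 0, with 5, 2 and 4 (13.7%, 5.25% and 7.42%). SDF2L1 came nearest to passing. On the 4 E2+P4 arrays it lay close together, between 13.98 and 14.03, above all the E2+MPA values given before, and E2+MPA differed from E2+P4 by -0.46 ± 0.115 (95% interval -0.699 to -0.228, adjusted p = 0.0579). It passed with the sets as a block (-0.49, adjusted p = 0.0401, 0.596% of all genes) and without both arrays in doubt (adjusted p = 0.0466, 1.11%). It also passed without E2+MPA replicate 1 or 2 (adjusted p = 0.0176 and 0.0172). Over 19 other settings, among them each array of either group left out, it passed in 6. With 1 array left out the change ran from -0.53 to -0.32, and over all settings the limma adjusted p reached 0.489. MPA is progesterone with an added methyl group and an acetate ester. For HSPA5 the change of E2+MPA from E2+P4 was -0.09 ± 0.169, with a 95% interval of -0.436 to 0.253. In DHT against P4, SEC24D and EIF2AK3 passed without DHT replicate 3 (-2.60 and -1.81), the 1 DHT array of set 6. The share of all genes that passed in that fit is not given.

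The longer exposure to E2 gave no call in E2pre+P4 against E2+P4 (0 of 33, 0.0101% of all genes), with 3 genes at an unadjusted p under 0.05 in limma (3.47% of all genes). Without both arrays in doubt it also gave 0 of 33, with 2 at an unadjusted p under 0.05, while 1.27% of all genes passed (1.37% with the sets as a block as well). ATF3 was 8.83, 8.95, 8.85 and 9.02 on the E2pre+P4 arrays, all below the E2+P4 arrays, a change of -0.34 ± 0.124 (adjusted p = 0.85). Whether E2 altered the response to a steroid was tested as an interaction. It passed for 0 of 33 genes with P4 (0.0101% of all genes), with MPA (0%) and with DHT (0%), with 3, 7 and 1 genes at an unadjusted p under 0.05 (3.66%, 14.6% and 4.68% of all genes). The SEL1L interaction of E2 with DHT was 0.72 ± 0.223 (adjusted p = 0.951).

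HSPA5 encodes BiP, the main chaperone of the ER lumen. Its log2 signal was 10.38, 10.64, 10.46 and 10.07 on the MPA arrays, against 11.33, 10.51, 10.57 and 10.65 on the vehicle arrays. The groups overlapped, and vehicle replicate 1 stood apart at the highest value of all 36. The change was -0.37 ± 0.169 (adjusted p = 0.152), and without vehicle replicate 1 it was -0.19 (adjusted p = 0.634). With E2+P4 the change was 0.23, and 0.42 without that array (adjusted p = 0.416). On the arrays of P4, MPA and DHT HSPA5 lay between 10.07 and 10.87, and on the arrays of the 5 groups with E2 between 10.64 and 11.25. Its 9 group means did not pass the F-test (adjusted p = 0.0659, with the sets as a block 0.16), and its interactions of E2 with P4, MPA and DHT gave adjusted p = 0.853, 0.448 and 0.965.

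The other chaperones and folding enzymes are described by the span of their group means. The group means of HSP90B1 (the ER form of HSP90) spanned 0.39 on the log2 scale, those of the lectin chaperones CALR and CANX 0.35 and 0.31, and those of CRELD2 0.39. Among the disulfide enzymes, P4HB spanned 0.33, PDIA6 0.48 and the oxidase ERO1A 0.42. The co-chaperones DNAJB9, DNAJB11 and DNAJC3 spanned 0.429, 0.30 and 0.422, HYOU1 (a large HSP70-type chaperone) 0.572, and EDEM1, which takes misfolded glycoproteins from the folding cycle, 0.217. No change of these genes against vehicle passed. HYOU1 changed by between -0.52 with P4 and 0.0514 with E2, and its second probe by between -0.493 and -0.0933. CANX changed by between -0.318 with MPA and -0.0251 with E2. A second CANX probe, detected on all 36 arrays, changed by between -0.61 with MPA and -0.0929 with E2+MPA. PDIA4, a further disulfide isomerase, was 9.83, 9.67, 9.94 and 9.46 on the E2+P4 arrays, against 8.17, 9.73, 9.22 and 9.18 on the vehicle arrays, a change of 0.65 ± 0.215 with overlap (adjusted p = 0.134). Vehicle replicate 1 was its lowest array. Without that array the change was 0.35 (adjusted p = 0.797), and without vehicle replicate 2 it was 0.87 and passed (adjusted p = 0.0198, 3.35% of all genes).

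SYVN1 is the ubiquitin ligase of ER-associated degradation. It was 11.26, 11.04, 11.07 and 11.32 on the E2+MPA arrays, against 10.12, 11.13, 10.63 and 10.79 on the vehicle arrays. The groups overlapped through vehicle replicate 2, and the change was 0.51 ± 0.159 (adjusted p = 0.0659). It passed at 0.48 with the sets as a block (adjusted p = 0.04, 6.42% of all genes). Vehicle replicate 1 was the lowest of all 36 arrays, and without it the change with E2+MPA was 0.32 (adjusted p = 0.301). Without vehicle replicate 2 it was 0.66 and passed (adjusted p = 0.0121, 4.24% of all genes). SYVN1 averaged above vehicle in all 8 treatments over the 4 vehicle arrays, and without vehicle replicate 1 in 7, with E2+P4 at -0.02. A second SYVN1 probe, detected on 5 arrays, averaged below vehicle in all 8, from -0.305 with E2pre+P4 to -0.844 with E2+DHT.

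Among the ATF4-type genes, DDIT3 encodes CHOP, a factor tied to cell death in long ER stress. It was 9.37, 9.49, 9.45 and 9.20 on the E2+MPA arrays, against 10.01, 9.50, 9.65 and 9.90 on the vehicle arrays. The groups were separate by a narrow margin, and the change was -0.39 ± 0.156 (adjusted p = 0.162). TRIB3, a pseudokinase induced by ATF4 and CHOP, differed from vehicle by between -0.12 with MPA and 0.24 with E2+MPA. ASNS, the asparagine synthetase, differed by between -0.28 with MPA and 0.08 with E2+MPA, and without vehicle replicate 1 these were -0.12 and 0.24. Without vehicle replicate 2 ASNS passed with MPA (-0.46, adjusted p = 0.0451, 18.2% of all genes). A second ASNS probe, detected on 33 arrays, differed from vehicle by between -0.631 with E2+MPA and 0.363 with P4. With MPA that probe differed by 0.0259. The group means of VLDLR, a lipoprotein receptor, spanned 0.475, and those of SESN2, an inhibitor of mTORC1 detected on 21 arrays as was DNAJC3, spanned 0.679. SLC3A2, the heavy chain of amino acid exchangers, was lowest with MPA (9.78 to 10.89) and highest with E2+MPA (10.70 to 12.13), and neither group passed against vehicle. Without vehicle replicate 2 SLC3A2 passed with MPA (-0.86, adjusted p = 0.0394, 18.2% of all genes).

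PSAT1 and PHGDH are enzymes of serine synthesis, and their lowest group means were those of E2+DHT for PSAT1 and MPA for PHGDH. PSAT1 was 9.003, 8.67, 8.62 and 8.48 on the E2+DHT arrays, against 9.70, 8.997, 9.10 and 9.35 on the vehicle arrays. Only the highest E2+DHT array reached the lowest vehicle array, and the change was -0.59 ± 0.193 (adjusted p = 0.075). PHGDH was 13.60, 13.33, 13.30 and 13.35 on the E2+DHT arrays and 13.39, 13.45, 13.22 and 13.63 on the DHT arrays, against 14.09, 13.51, 13.68 and 13.94 on the vehicle arrays. Both treated groups overlapped vehicle, with changes of -0.41 (adjusted p = 0.13) and -0.39 (adjusted p = 0.226). On the MPA arrays PHGDH was 13.21, 13.43, 13.47 and 13.32, below every vehicle array. That change was larger, at -0.45, and did not pass either. With the sets as a block 3 of these changes passed, which were PSAT1 with E2+DHT (-0.56, adjusted p = 0.0375, 5.47% of all genes), PHGDH with E2+DHT (-0.43, adjusted p = 0.0408) and PHGDH with DHT (-0.51, adjusted p = 0.0409). Without both arrays in doubt as well, PHGDH with E2+DHT passed (-0.45, adjusted p = 0.0381) and the other 2 did not. Without vehicle replicate 2 PSAT1 (-0.69, adjusted p = 0.0323) and PHGDH (-0.51, adjusted p = 0.0422) passed with E2+DHT (11.3% of all genes). PHGDH also passed with MPA in that fit (-0.55, adjusted p = 0.0277, 18.2% of all genes). Vehicle replicate 1, which stayed in, held the highest PSAT1 value of all arrays. Without vehicle replicate 1 these changes were smaller and did not pass. With E2+DHT they were -0.46 for PSAT1 and -0.32 for PHGDH (3.04% of all genes passing). With MPA the PHGDH change was then -0.36 (adjusted p = 0.538, 0.677% of all genes passing).

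Read as lists, the ER and ATF4-type genes had small median changes, and no list was tested as a set. The ER median lay above that of all genes in every group with E2, most with E2pre+P4, and slightly below it with P4 and MPA. With DHT it was also slightly above (-0.0083 against -0.0338), but below without vehicle replicate 1 (-0.0799 against -0.0213). The median change of the 20 ER genes was -0.138 with P4, -0.145 with MPA, -0.0083 with DHT, 0.151 with E2pre+P4, 0.0947 with E2+P4, 0.114 with E2+MPA, -0.00393 with E2+DHT and 0.12 with E2. Over all 9902 genes the median was -0.122 with P4, -0.119 with MPA, -0.0338 with DHT, -0.0634 with E2pre+P4, -0.0331 with E2+P4, -0.0272 with E2+MPA, -0.0732 with E2+DHT and -0.011 with E2. With P4 and with MPA 15 of the 20 ER genes were below vehicle (64.2% and 62.6% of all genes), and with E2 15 were above (48.2% of all genes). Without vehicle replicate 1, 17 ER genes were above with E2 (49.6% of all genes) and 16 with E2pre+P4 (44.7%). In that fit 14 were above with E2+P4 (49.6%), 12 with E2+MPA (49%) and 13 with E2+DHT (44.6%). With P4 and with MPA 15 stayed below (61.9% and 61.5%). The median of the 11 ATF4-type genes was -0.182 with P4, -0.118 with MPA, 0.00554 with DHT, -0.189 with E2pre+P4, -0.111 with E2+P4, 0.099 with E2+MPA, -0.191 with E2+DHT and 0.0343 with E2. By array, the ER list lay between -0.241 and -0.0775 with P4 and between 0.036 and 0.172 with E2+P4, against -0.0957 to 0.0835 with vehicle, so both overlapped vehicle.

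**Figure D3:**
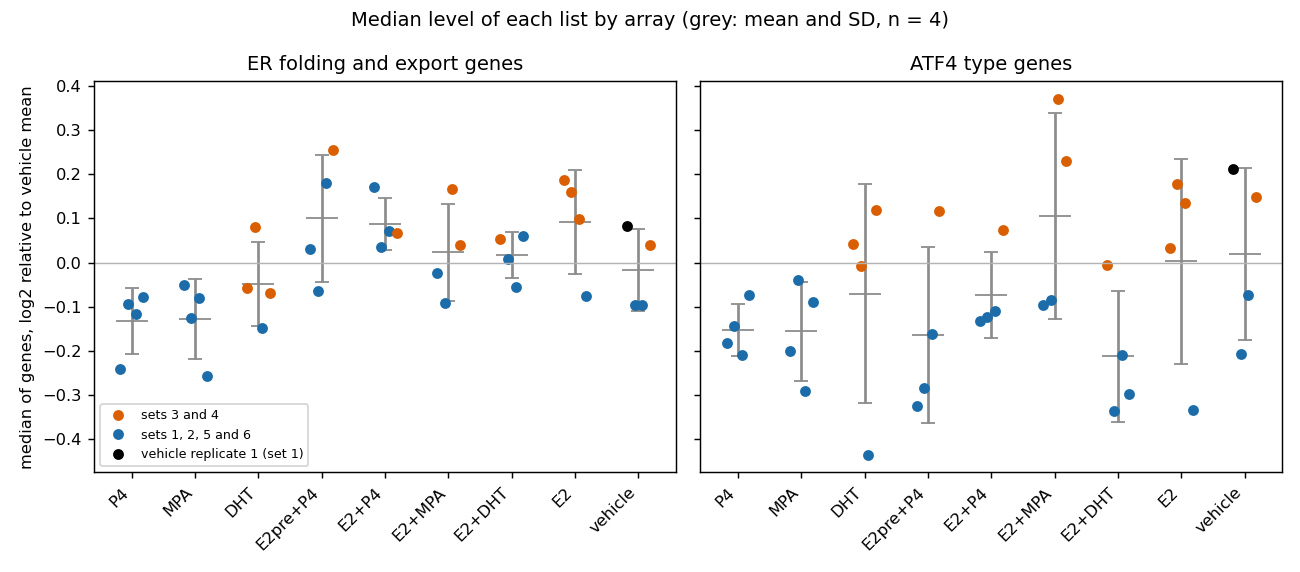
Median over the 20 ER genes (left) and the 11 ATF4-type genes (right) on each array, as log2 relative to the vehicle mean, by group, with mean and SD (n = 4) in grey and the arrays of sets 3 and 4 in orange. All treated groups overlap vehicle in both lists, and within most groups of the ATF4-type list the arrays of sets 3 and 4 are the highest.

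The largest differences from vehicle belonged to 4 genes and did not pass. SEC24D is a coat protein of ER export vesicles, and SEC61B is a subunit of the channel by which proteins enter the ER. SEC24D was 9.45, 9.07, 8.95 and 9.12 on the P4 arrays, against 5.56, 8.55, 8.51 and 6.66 on the vehicle arrays. EIF2AK3 was 8.56, 8.52, 8.04 and 8.75 on the P4 arrays, against 5.68, 8.13, 8.12 and 6.02 on the vehicle arrays. In both genes vehicle replicates 1 and 4 were far below the other vehicle arrays. ATF4, the transcription factor itself, was 14.34, 14.04, 14.10 and 13.68 on the P4 arrays, against 10.16, 13.83, 13.48 and 12.83 on the vehicle arrays. SEC61B was 14.01, 13.75, 13.88 and 13.58 on the P4 arrays, against 10.89, 13.66, 12.97 and 12.90 on the vehicle arrays. Vehicle replicate 1 was the lowest of all 36 arrays in both. With P4 the changes were 1.83 ± 0.797 for SEC24D, 1.48 ± 0.569 for EIF2AK3, 1.46 ± 0.558 for ATF4 and 1.20 ± 0.413 for SEC61B (adjusted p = 0.159, 0.136, 0.136 and 0.126), and with MPA they were 1.73, 1.28, 1.39 and 1.17 (adjusted p = 0.16, 0.15, 0.128 and 0.11).

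SEC24D and EIF2AK3 followed the set of 6 arrays. On the 12 arrays of sets 3 and 4 SEC24D lay between 6.285 and 7.361, and on the 23 other arrays without vehicle replicate 1 between 8.507 and 9.72. EIF2AK3 lay between 5.754 and 7.362 on the 12 arrays and between 7.682 and 9.02 on the 23. The groups of arrays did not overlap for these 2 of the 33 genes, and the same held for 5.29% of all genes. Both genes were below detection on 11 of the 12 arrays of sets 3 and 4 and on 1 of the other 24, vehicle replicate 1. The mean difference of sets 3 and 4 from the others was -1.13 for ATF4 and -0.794 for SEC61B, and it was 0.588 for SLC3A2, 0.58 for SESN2, 0.54 for PDIA6, 0.406 for PSAT1 and 0.361 for TRIB3. A second ATF4 probe was lower in sets 3 and 4 (8.988 against 10.43 on average), and the remaining probe was higher (7.644 against 6.917).

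**Figure D4:**
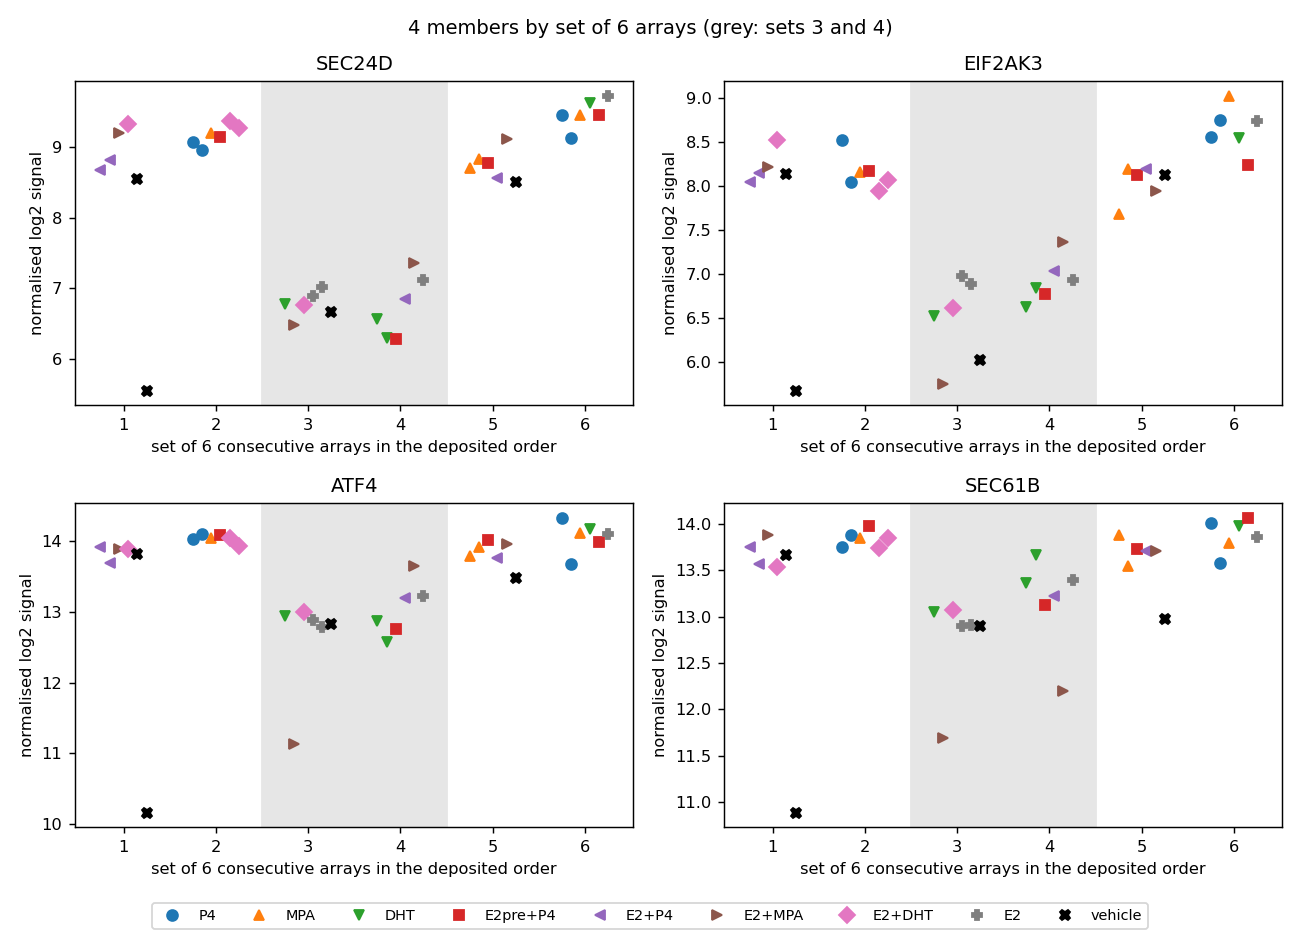
Normalised log2 signal of SEC24D, EIF2AK3, ATF4 and SEC61B by set of 6 neighbouring arrays, with a symbol for each hormone group and sets 3 and 4 shaded. In the shaded sets SEC24D (6.285 to 7.361) and EIF2AK3 (5.754 to 7.362) lie below all other arrays but vehicle replicate 1 of set 1.

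P4 and vehicle arrays shared no set, so no value within a set can be had for them and the sets and P4 cannot be told apart that way. With the sets as a block the P4 changes were 0.61 for SEC24D, 0.79 for EIF2AK3, 0.82 for ATF4 and 0.82 for SEC61B (adjusted p = 0.858 each). Without vehicle replicate 1 they were 1.24, 1.04, 0.66 and 0.63 (adjusted p = 0.595, 0.583, 0.609 and 0.583), and 0 of the 33 genes passed. Without vehicle replicate 2, which left replicate 1 in, 6 of the 33 passed with P4 (12.3% of all genes), among them ATF4 (1.88), EIF2AK3 (1.86) and SEC61B (1.55). With MPA 7 passed (18.2% of all genes), among them ATF4 (1.81) and SEC61B (1.52). The counts without that array were 5 with E2pre+P4 (14.5% of all genes), 2 with E2+P4 (3.35%), 1 with E2+MPA (4.24%) and 4 with E2+DHT (11.3%). The number of calls thus turned on which vehicle arrays were in the fit. What made sets 3 and 4 and vehicle replicate 1 differ was not tested.

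In their shares of variation the 33 genes were like the rest of the array. The set of 6, after group, took a median of 22.8% of their variation (22.2% for all genes), and hormone group, after set, took 21.7% (20.6% for all genes). The set took the most in PDIA6 (58.1%), SEC24D (58%), TRIB3 (50.8%) and EIF2AK3 (50.1%). Group took the most in MANF (60%), SDF2L1 (58.8%), ATF3 (54.2%) and DDIT4 (50.9%). The sensor ATF6, a membrane-bound transcription factor, had group means from 11.23 with E2pre+P4 to 11.53 with E2+MPA, and changes against vehicle between -0.11 and 0.19.

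**Figure D5:**
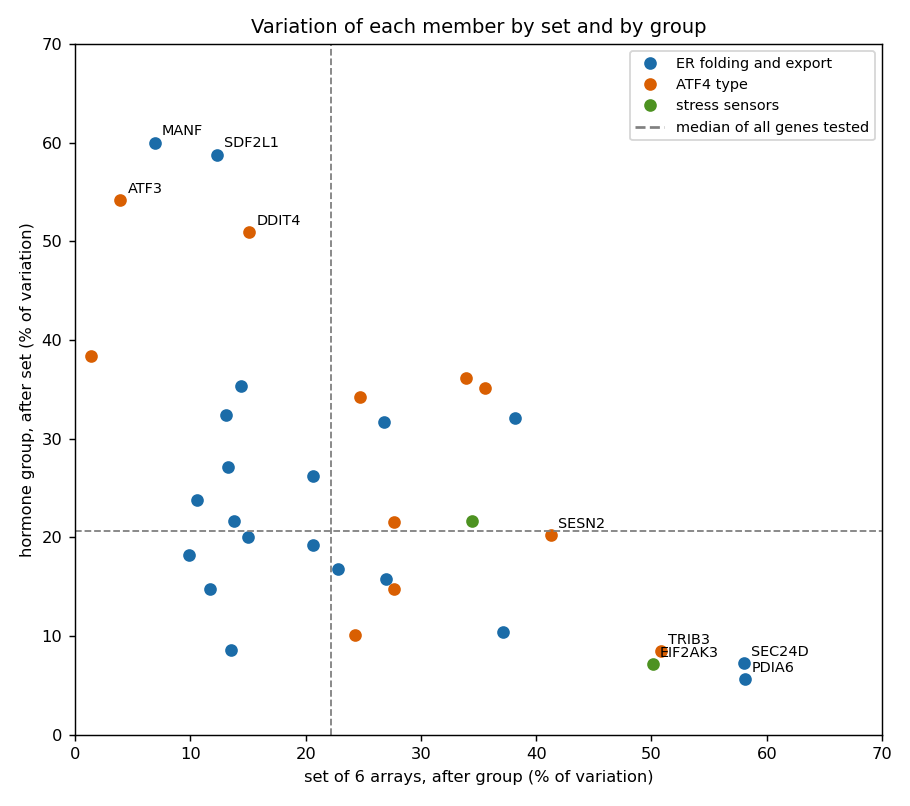
Share of each gene's variation over 36 arrays taken by the set of 6 after group (horizontal axis, %) and by hormone group after set (vertical axis, %), with dashed lines at the medians of all genes tested (22.2 and 20.6). MANF, SDF2L1, ATF3 and DDIT4 lie highest, and PDIA6, SEC24D, TRIB3 and EIF2AK3 lie farthest right.

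Further genes of the same pathways were read from lists of 43 ER genes, 38 ATF4-type genes and 14 cytosolic heat shock genes that were measured. Against vehicle, 2 of the 43, 3 of the 38 and 0 of the 14 passed in at least 1 of the 8 comparisons (10.7% of all genes). In limma 0 to 7 of the 14 heat shock genes had an unadjusted p under 0.05, the 7 with P4 (26.3% of all genes). STC2, a secreted glycoprotein induced through PERK and ATF4 and also known as an estrogen-responsive gene, averaged above vehicle in all 5 groups with E2. The rise passed in 4 of them. It was 10.48, 9.66, 10.33 and 10.21 on the E2 arrays, against 9.59, 9.09, 8.92 and 9.03 on the vehicle arrays, without overlap. On the E2+MPA arrays STC2 was 9.675, 9.68, 9.923 and 9.552, which overlapped vehicle through replicate 1, and that rise did not pass. The change was 0.73 with E2pre+P4, 1.08 with E2+P4, 1.13 with E2+DHT and 1.02 with E2 (adjusted p = 0.00554, 7.42e-05, 2.04e-05 and 0.000165), and all 4 also passed with the sets as a block. SLC7A1, a transporter of cationic amino acids, rose with E2pre+P4 (0.49, adjusted p = 0.0454) and E2 (0.59, adjusted p = 0.0401). SLC6A9, a glycine transporter, fell with MPA (-0.78, adjusted p = 0.0435). UGGT1, the folding sensor of glycoproteins, fell with E2+DHT (-0.96, adjusted p = 0.0181), and CREB3L2, a membrane-bound transcription factor, fell with E2pre+P4 (-0.57, adjusted p = 0.0282). Such changes were not confined to the groups named, though elsewhere they did not pass. UGGT1 was 8.229 to 8.753 with P4 and 8.242 to 9.048 with MPA (vehicle 8.978 to 10.13). CREB3L2 was 11.09 to 11.19 with P4 and 11 to 11.32 with MPA (vehicle 11.43 to 12.14). SLC7A1 was 11.68 to 12.03 with E2+DHT (vehicle 10.75 to 11.53). None of SLC7A1, SLC6A9, UGGT1 and CREB3L2 passed without vehicle replicate 1 or with the sets as a block. With that block 4 of the 43, 2 of the 38 and 0 of the 14 passed (11.2% of all genes), with 0 to 5 of the 14 at an unadjusted p under 0.05 in limma. The genes that passed with the block and not without it were SSR3 and EDEM3 with E2+MPA (0.76 and 0.70), SSR3, SERP1, OS9 and PYCR1 with E2+DHT (0.64, 0.49, -0.72 and -0.44), and OS9 with E2pre+P4 (-0.73).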

How the data were processed

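RNA of 36 ZR-75-1 samples was measured on Illumina HumanWG-6 v3 arrays. The authors exported intensity values without normalisation from BeadStudio, and the deposited detection p-value column rises with signal, so it was read as 1 minus the p-value. Per the study's methods the authors' own analysis used vsn and ComBat, neither of which entered the values used here. The deposited value table, a score that is a linear rescaling of the same intensities within each array (slope 0.324 to 1.57, column medians 5.4 to 30.9, centring unstated), served as an alternative.

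Background was corrected with limma's normexp from detection p-values (limma 3.58.1, R 4.3.3), an offset of 16 was added, and arrays were quantile normalised to log2. A probe passed when its detection p was under 0.01 on 4 or more arrays. Of 48803 probes 27578 had 1 gene symbol in the platform annotation, 13 several and 21212 none. The passed probe with the highest mean stood for its gene, which gave 9902 genes, 2410 of them with several passed probes. Each gene was fitted with 9 group means over all 36 arrays (lmFit, eBayes) in 21 comparisons, with Benjamini-Hochberg adjustment over 9902 genes. The script was tested on simulated data. The number of arrays limits the precision.

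Every measured gene was accounted for. Values were given for genes that passed (up to 6 per direction and comparison), for HSPA5, ATF4, DDIT3, CHAC1, ASNS, TRIB3, PSAT1 and the sensors, for up to 4 genes that passed in each further list, and for PDZK1, SERPINA3 and FKBP5 as a check of the labels, and other genes were named after their values were seen. The list of genes, the further lists and the arrays in doubt were chosen with earlier results of these data known. Alternatives were cyclic loess, an offset of 50, the authors' value table, other detection filters, the mean of probes, blocks for replicate number or set of 6, fits of only the groups compared, and leaving out arrays. The F-test, the block of sets without the 2 arrays in doubt, and values of every gene without vehicle replicate 1 or 2 were added after seeing the data.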

Additional observations from a re-analysis of the deposited data

Results flagged for a closer look

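In 16 genes, 144 groups of 4 arrays were examined for 1 array far from the other 3 (a gap to the nearest past Dixon's 95% critical value for 4 values), and 15 had one. Chance alone marks about 1 in 20 groups of independent values. The count of 15 cannot be set against that rate. The 16 genes were not chosen blind to these data, their groups share the same arrays, and no rate over all genes is given. The outlying array lay in set 3 or 4 in 9 of the 15.

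SEC24D and EIF2AK3 gave 8 of these. In SEC24D, E2+P4 replicate 4 was 6.85 (the others 8.558 to 8.811) and E2+DHT replicate 1 was 6.771 (9.264 to 9.366), while DHT replicate 3 was 9.625 (6.294 to 6.777) and E2 replicate 4 was 9.72 (6.897 to 7.122). In EIF2AK3, E2+P4 replicate 4 was 7.035 (8.047 to 8.194) and E2pre+P4 replicate 4 was 6.774 (8.124 to 8.237), while DHT replicate 3 was 8.54 (6.517 to 6.838) and E2 replicate 4 was 8.739 (6.882 to 6.975). The low arrays were in sets 3 and 4 and the high ones in set 6.

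ATF4 gave 3, each low and each in set 3 or 4. E2+MPA replicate 3 was 11.14 (13.65 to 13.96), E2+DHT replicate 1 was 13.01 (13.90 to 14.04), and E2pre+P4 replicate 4 was 12.76 (13.99 to 14.10).

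The other 4 were single arrays. HSPA5 was 11.33 on vehicle replicate 1 (10.51 to 10.65), PSAT1 was 8.95 on E2 replicate 4 (9.423 to 9.464), SEL1L was 8.835 on E2 replicate 1 (8.34 to 8.386), and PHGDH was 13.60 on E2+DHT replicate 1 (13.30 to 13.35). No interaction of E2 with a steroid passed for the 33 genes in limma, with 3, 7 and 1 at an unadjusted p under 0.05 for P4, MPA and DHT (3.66%, 14.6% and 4.68% of all genes).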

How the results depend on the processing

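Over 11 settings the 24 list medians gave 264 values, of which 261 lay within 1 SD between replicates of the median reported. The direction turned in 20, for 8 medians of at most 0.0428 in size, and 49 others differed by over 1.5 times. With the sets as a block the ATF4-type median was -0.116 with E2 and -0.0853 with DHT, both turned, and -0.0657 with P4. The values 1 SD or more away were the ER median with P4, at -0.0313 with cyclic loess and -0.0223 with the sets as a block, and with MPA, at -0.0345 with cyclic loess. Counts of the 33 genes that passed were more fragile. With the sets as a block the count was 0 for E2pre+P4, 1 for E2+MPA and 2 for E2+DHT against vehicle, 1 for E2+MPA against E2, 1 for E2+MPA against E2+P4, and 3 for the F-test. Leaving out the 2 arrays in doubt as well gave 0 for DHT and E2pre+P4, 1 for E2+MPA and 1 for E2+DHT against vehicle, and 1 for E2+MPA against E2+P4. Leaving out only those arrays gave 0 for E2pre+P4 against vehicle and 1 for E2+MPA against E2+P4. Cyclic loess gave 1 for E2 (ATF3, 0.52) and 0 for E2pre+P4 against vehicle, 1 for E2+DHT against E2 (PSAT1, -0.56), 1 for E2+MPA against E2+P4, and 4 for the F-test. Fitting only the groups compared gave 0 for DHT, E2+P4 and E2pre+P4. With the mean of probes SYVN1 reversed to -0.11 with E2+MPA. The causes were not tested.

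Leaving out 1 array gave 0 to 6 genes for P4, 0 to 7 for MPA, 0 to 1 for DHT, 0 to 5 for E2pre+P4, 0 to 2 for E2+P4, 0 to 1 for E2+MPA and 0 to 4 for E2+DHT against vehicle. It gave 0 to 3 for E2+MPA against E2, 0 to 2 for DHT against P4, 0 to 3 for E2+MPA against E2+P4 and 1 to 5 for the F-test. With a vehicle array left out, 0% to 12.3% of all genes passed with P4 and 0.677% to 18.2% with MPA. With any 1 array left out, 6.52% to 8.93% of all genes passed the F-test. For treated arrays left out, the share of all genes in pairwise comparisons is not given, so those counts cannot be set against it.

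Replicate numbers did not pair the samples (median correlation of same-numbered arrays 0.0443, from -0.867 to 0.772, and 11 of 36 arrays nearest their own number). With the replicate block 1 gene passed in E2+MPA against E2 (MANF, -0.50, adjusted p = 0.0458) and 2 in the F-test.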
